A study of Mus musculus with 21 samples.

Results

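Copper ions bind the kinases MEK1 and MEK2, which activate ERK, and the kinases ULK1 and ULK2, which start autophagy. The 9 genes described here are the genes of these kinases, Map2k1, Map2k2, Ulk1 and Ulk2, the ERK kinase gene Mapk3, the RAF kinase gene Braf and the ERK feedback genes Dusp6, Spry2 and Spred1. They were taken by gene symbol out of the 21872 symbols measured in mouse brain, and each of the 9 passed the filter on low counts at both ages. Copper acts on the kinases as proteins, so the RNA levels given here measure how much transcript was present and not kinase activity.

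In the ERK cascade, RAS recruits RAF kinases such as BRAF, RAF phosphorylates MEK, and MEK phosphorylates ERK, of which Mapk3 encodes the ERK1 form. ERK then drives transcription of its own inhibitors, among them the phosphatase DUSP6, which removes phosphate from ERK, and the adaptors SPRY2 and SPRED1, which act at the level of receptors, RAS and RAF. ULK1 and ULK2 are the catalytic subunits of the complex that opens autophagosome formation, and AMPK and mTORC1 switch them on and off. In neurons the cascade serves differentiation and synaptic plasticity, and autophagy serves the turnover of axons and synapses.

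The study compared mice given water with mice given trientine (TETA), a copper-chelating drug, and its labels call the second condition copper-deficient. There were 6 water and 6 TETA libraries at embryonic day 18.5 (E18.5), and 5 water and 4 TETA libraries at 7 weeks after birth. The labels name the tissue of every library as brain. Their protocol speaks of prefrontal cortex from male animals at 7 weeks alone, so region and sex at E18.5 are not given in the sources used here, nor are strain, dose, route or the start of treatment. No genotype other than the organism is given, and no label ties a library to one animal, so p-values measure the spread between these libraries, which may in part be technical.

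Libraries held 14678265 to 24308555 counts at E18.5 and 17838051 to 24035857 counts at 7 weeks. Each value of the 9 genes rests on 358 (Spry2) to 6637 (Ulk2) counts in a library. Pan-neuronal markers summed to between 6770 and 8170 CPM (counts relative to the scaled size of a library) in every library, and no marker of any list used here was at 0 throughout a group. Y-linked genes summed to between 0 and 228 CPM at E18.5 and between 129 and 154 CPM at 7 weeks, so the E18.5 libraries came from both sexes. Libraries at 0 were 2-1 and 3-2 in control and 2-2 and 3-2 in TETA, with 3-1 in TETA at 0.062 CPM. At 7 weeks the summed level of 13 striatum markers was 1030 to 1260 CPM in control and 464 to 592 CPM in TETA. All 13 were lower in TETA past the test used below, the dopamine receptor gene Drd2 at 15.1 to 24.8 CPM in control and 1.72 to 5.30 CPM in TETA.

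The genes lie on 8 chromosomes of the mouse genome GRCm38 and were placed by GENCODE M21. Map2k1 lies on chromosome 9 from 64185770 to 64253631 on the minus strand, and Map2k2 on chromosome 10 from 81105915 to 81133975 on the plus strand. Ulk1 lies on chromosome 5 from 110784488 to 110810097 and Ulk2 on chromosome 11 from 61775649 to 61855073, both on the minus strand. Braf covers 39603237 to 39725463 on the minus strand of chromosome 6, and 146 of its exonic bases (1.05%) are also exon of Ndufb2 on the other strand. Mapk3 covers 126759601 to 126765819 on the plus strand of chromosome 7. The feedback genes are Dusp6 on chromosome 10 from 99263231 to 99267489 (plus), Spry2 on chromosome 14 from 105891947 to 105896819 (minus) and Spred1 on chromosome 2 from 117121374 to 117182279 (plus). Exons of the other 8 overlap no other annotated gene.

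Levels of the 9 genes were first set in order within each group, as CPM per kilobase of merged exons on one scale over all 21 libraries. Mapk3 and the ULK genes led in control embryos, and Dusp6 and Braf were lowest. Mapk3 was highest in control at E18.5 at 61.4 ± 1.11 CPM per kb (SD, n = 6), followed by Ulk2 at 45.2 ± 1.26 and Ulk1 at 24.7 ± 1.5. Map2k2 followed at 17.2 ± 0.679, Spred1 at 13.6 ± 0.811, Spry2 at 11.9 ± 1.01, Map2k1 at 11.6 ± 0.522, Dusp6 at 9.01 ± 0.569 and Braf at 6.77 ± 0.674 CPM per kb. Spred1 overlapped Spry2, and Spry2 overlapped Map2k1. Every other neighbour in that order was separated library by library.

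At 7 weeks the order in control was different, with Map2k1 first at 84.5 ± 3.42 CPM per kb (SD, n = 5). Mapk3 followed at 57.2 ± 4.38, Spred1 at 34.3 ± 2.08, Ulk2 at 29.5 ± 0.571, Dusp6 at 27.6 ± 5.79 and Spry2 at 26.9 ± 2.08 CPM per kb. Ulk1 was at 15.8 ± 0.241, Map2k2 at 11.6 ± 0.721 and Braf at 11.3 ± 0.221 CPM per kb. Ulk2 overlapped Dusp6, Dusp6 overlapped Spry2 and Map2k2 overlapped Braf, and the other neighbours were separate. The TETA libraries gave the same order at each age but for 1 exchange of overlapping neighbours, Map2k1 with Spry2 at E18.5 and Dusp6 with Ulk2 at 7 weeks. A merged exon length counts every annotated exon, so a gene with many rarely used exons is given too low a level on this scale.

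**Figure D1:**
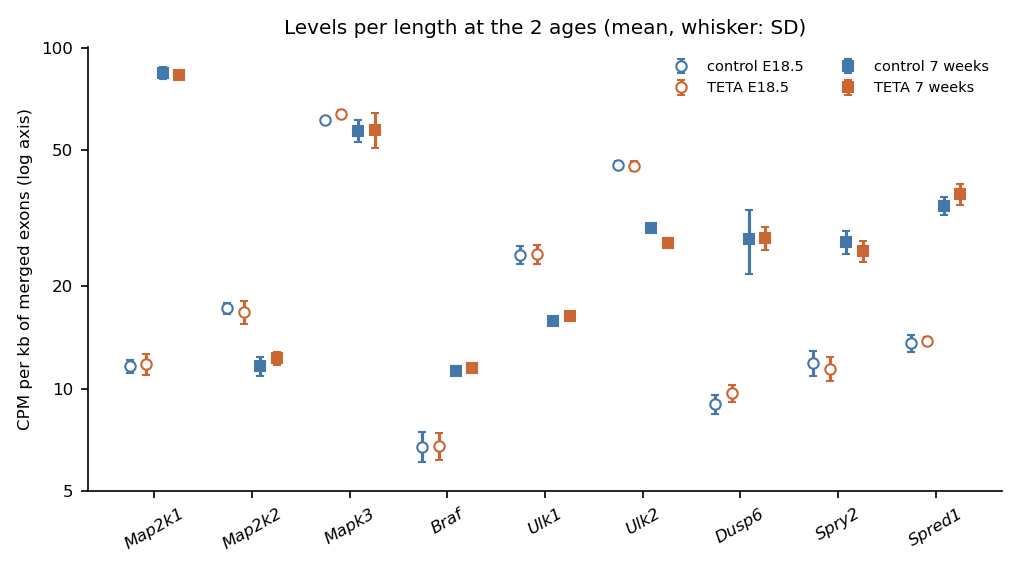
Mean level of the 9 genes in each group, in CPM per kb of merged exons on a log axis, with SD whiskers over 4 to 6 libraries; open circles are E18.5 and filled squares 7 weeks. Map2k1 stands at 11.6 CPM per kb in control at E18.5 and at 84.5 at 7 weeks, while Map2k2 stands at 17.2 and 11.6.

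The MEK genes moved in opposite directions between the ages. Map2k1 was between 36.4 and 41.5 CPM in the 6 control libraries at E18.5, with a mean of 39.4 ± 1.77 (SD), and at 291, 294, 289, 292 and 266 CPM in the 5 control libraries at 7 weeks, on the scale shared by all libraries. The 7-week libraries were all far above the embryonic ones, with no overlap. The log2 fold change was 2.86 (SE 0.042; 7.27-fold), with an adjusted p of 1.64e-32 by the quasi-likelihood test of edgeR after Benjamini-Hochberg (BH) adjustment. Map2k2 was between 90.9 and 101 CPM in control at E18.5 and at 58.9, 69.1, 67.5, 65.6 and 68.2 CPM at 7 weeks. All its 7-week libraries lay below all its embryonic ones, a log2 fold change of -0.57 (SE 0.049) with an adjusted p of 2.91e-12 in the same test.

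These age differences stand among very many. In control libraries 13098 of 14660 genes passed the threshold between the ages (89.3%), 44% higher and 45.3% lower at 7 weeks, so the count of 8 of the 9 genes passing is near that background. The age groups did not overlap for these 8 genes, nor for 79.5% of all genes tested. A rise as large as that of Map2k1 was less common: 870 genes (5.93%) rose at least as much, with falls of that size not counted. The 2 ages were deposited as separate tables, and age cannot be told apart from the dissected region, sex or the handling of each table. Without TMM scaling the median gene shifted by -0.15 on the log2 scale, and each of the 9 kept its direction under that scaling and with DESeq2.

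The sequences before the start sites of the MEK genes, which went opposite ways with age, are shown together with those of Braf and Dusp6, which rose. Each is the 250 bases upstream of the RefSeq start (GRCm38.p6), 5′ to 3′ on the gene's own strand: chr9:64253606-64253855 (minus) for Map2k1, chr10:81105665-81105914 (plus) for Map2k2, chr6:39725464-39725713 (minus) for Braf and chr10:99262981-99263230 (plus) for Dusp6. Capitals mark matches on either strand to an ETS core (CGGAA or TTCCG), a core of the cAMP response element (CRE; TGACG or CGTCA) or a GC box (GGGCGG or CCGCCC). ETS factors are targets of ERK, and CREB, which binds the CRE, is phosphorylated by kinases that ERK activates.
Map2k1: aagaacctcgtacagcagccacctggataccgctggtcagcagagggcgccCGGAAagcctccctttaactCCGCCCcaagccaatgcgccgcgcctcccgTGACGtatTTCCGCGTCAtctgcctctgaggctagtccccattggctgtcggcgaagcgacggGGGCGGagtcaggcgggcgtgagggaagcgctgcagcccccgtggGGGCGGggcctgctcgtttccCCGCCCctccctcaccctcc
Map2k2: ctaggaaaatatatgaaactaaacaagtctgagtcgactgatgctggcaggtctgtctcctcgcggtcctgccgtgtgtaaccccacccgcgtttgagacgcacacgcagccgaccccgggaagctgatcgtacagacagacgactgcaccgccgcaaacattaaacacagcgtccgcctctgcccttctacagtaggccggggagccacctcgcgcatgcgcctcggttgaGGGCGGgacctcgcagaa
Braf: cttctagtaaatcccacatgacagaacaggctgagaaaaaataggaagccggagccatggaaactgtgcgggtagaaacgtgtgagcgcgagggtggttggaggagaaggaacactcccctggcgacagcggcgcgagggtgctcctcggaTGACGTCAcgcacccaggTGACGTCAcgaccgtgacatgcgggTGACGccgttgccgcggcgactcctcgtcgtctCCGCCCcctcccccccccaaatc
Dusp6: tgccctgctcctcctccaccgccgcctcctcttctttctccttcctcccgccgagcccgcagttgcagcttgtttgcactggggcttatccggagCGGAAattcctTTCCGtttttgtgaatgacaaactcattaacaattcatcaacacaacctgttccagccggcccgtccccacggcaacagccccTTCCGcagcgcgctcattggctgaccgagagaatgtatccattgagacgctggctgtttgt

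The Map2k1 window held 2 ETS cores, 2 CRE cores and 4 GC boxes, with an ETS core directly beside a CRE core in the run TTCCGCGTCA. The Map2k2 window held 1 GC box and neither of the other motifs. The Braf window held 5 CRE cores, 4 of them as a pair of full palindromes in which CRE cores on opposite strands overlap, and 1 GC box. The Dusp6 window held 3 ETS cores and neither other motif. Of 32851 RefSeq promoters of the same length, 25.2% held an ETS core, 17.8% a CRE core and 32.7% a GC box. A match describes letters only. Of the 9 genes, 8 had an entry, and among those not printed Ulk1 held 5 GC boxes, Ulk2 held 1 CRE core and 1 GC box, Spred1 held 1 ETS core and 2 GC boxes, and Spry2 held none of these motifs.

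Braf and the 3 feedback genes were higher at 7 weeks than at E18.5 in control. Braf was between 78.9 and 106 CPM at E18.5 and at 160, 154, 154, 158 and 153 CPM at 7 weeks, on the joint scale. Dusp6 was between 26.6 and 31.1 CPM at E18.5 and at 111, 77.7, 78.2, 98.4 and 66.0 CPM at 7 weeks. Each gene's 2 age groups were separate, but Dusp6 spread over a wide range among the 7-week controls. The log2 fold changes were 0.73 (SE 0.054) for Braf and 1.61 (SE 0.086) for Dusp6, with adjusted p-values of 4.59e-14 and 1.41e-17 by edgeR.

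Spry2 rose with a log2 fold change of 1.17 (SE 0.062) and Spred1 with 1.34 (SE 0.044), with adjusted p-values of 1.00e-17 and 3.48e-23 by edgeR. The ULK genes fell, Ulk1 by 0.64 (SE 0.042) and Ulk2 by 0.61 (SE 0.032) on the log2 scale, with adjusted p-values of 2.45e-15 and 1.06e-17 in the same test. Ulk1 was at 160.0 ± 9.70 CPM in control at E18.5 (SD, n = 6) and at 102 ± 1.57 CPM at 7 weeks (SD, n = 5), on the joint scale, with no overlap. Mapk3 overlapped between the ages and did not pass, at 138 ± 2.50 CPM (SD, n = 6) against 129 ± 9.89 CPM (SD, n = 5). Its log2 fold change was -0.10 (SE 0.049; adjusted p = 0.0551 by edgeR), and it passed under 8 of 26 alternatives.

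The treatment comparison asks whether transcripts of the copper-binding kinases and their partners differ after copper chelation, first in the embryonic brain. None of the 9 genes passed at E18.5, and their groups overlapped in each case, where 0.312% of all genes did not overlap. Over all genes 0 of 13794 passed (0%), and 660 (4.78%) had an unadjusted p under 0.05 by edgeR; DESeq2 called 10 genes. Of the 9, 0 had an unadjusted p under 0.05. Leaving out TETA replicate 1-2 gave 7 called genes and leaving out control replicate 3-2 gave 3, with 0 of the 9 among them. The median log2 fold change was 0.0055 over the 9 genes and -0.0027 over all genes tested.

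For the ULK genes at E18.5 the 2 groups were nearly the same. Ulk1 had its lowest, median and highest control values at 156, 167 and 182 CPM and its TETA values at 155, 169 and 179 CPM, on the scale of that age. Ulk2 was at 270.2, 282 and 291 CPM in control and at 269, 282 and 290.2 CPM in TETA. The groups overlapped throughout, with log2 fold changes of 0.0055 (95% CI -0.089 to 0.10) and -0.0038 (95% CI -0.075 to 0.068). The intervals leave room for changes of up to 7.17% in Ulk1 and of up to -5.08% in Ulk2.

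The MEK genes at E18.5 also overlapped between groups. Map2k1 had a lowest, median and highest value of 37.9, 41.3 and 43.2 CPM in control and 37.7, 42.0 and 45.0 CPM in TETA, with a log2 fold change of 0.027 (SE 0.051). Map2k2 had 94.3, 103 and 105 CPM in control and 83.4, 101 and 104 CPM in TETA, with a log2 fold change of -0.038 (SE 0.047). The low TETA value of Map2k2 came from 1 library, numbered 1-2. Braf, the kinase above MEK, had 82.2, 96.4 and 110 CPM in control and 90.7, 95.4 and 114 CPM in TETA, with a log2 fold change of 0.0027 (SE 0.060).

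Among the 9, Mapk3 and Dusp6 had the smallest p-values at E18.5. Mapk3 had a lowest, median and highest value of 141, 145 and 146 CPM in control and 146, 149 and 156 CPM in TETA. Of the 6 TETA libraries, 5 were above the highest control library, and 1 lay among the controls. The log2 fold change was 0.057 (SE 0.032; 95% CI -0.0094 to 0.12), with an unadjusted p of 0.0889 and an adjusted p of 0.996 by edgeR. Dusp6 had 27.7, 28.8 and 32.3 CPM in control and 28.6, 32.1 and 33.5 CPM in TETA, with a log2 fold change of 0.11 (SE 0.054; 95% CI -0.0057 to 0.22) with an unadjusted p of 0.0616 and an adjusted p of 0.996 in that test. Its groups overlapped too.

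The other feedback genes did not separate the groups at E18.5. Spry2 had a lowest, median and highest value of 23.2, 25.8 and 29.7 CPM in control and 21.2, 25.2 and 26.9 CPM in TETA, with a log2 fold change of -0.062 (SE 0.065). Spred1 had 89.6, 95.9 and 105 CPM in control and 94.2, 97.7 and 102 CPM in TETA, with a log2 fold change of 0.026 (SE 0.039). Adjusted p-values of all 9 genes at E18.5 ran from 0.996 to 0.999 by edgeR. Endothelial markers summed to 132 to 148 CPM in control and 147 to 165 CPM in TETA at that age, and immediate early genes to 51.5 to 63.5 and 61.3 to 72 CPM. Of 6 endothelial markers 4 had log2 fold changes above 0, led by Kdr (0.25), Flt1 (0.22) and Pecam1 (0.22). Cldn5 (-0.067) and Tek (-0.034) were below 0, and 0 of the 6 were called. The part of the endothelial markers was not tested. With the immediate early score as a covariate the uncalled log2 fold changes of Ulk1, Map2k2 and Braf turned sign, to -0.027, 0.023 and -0.11.

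**Figure D2:**
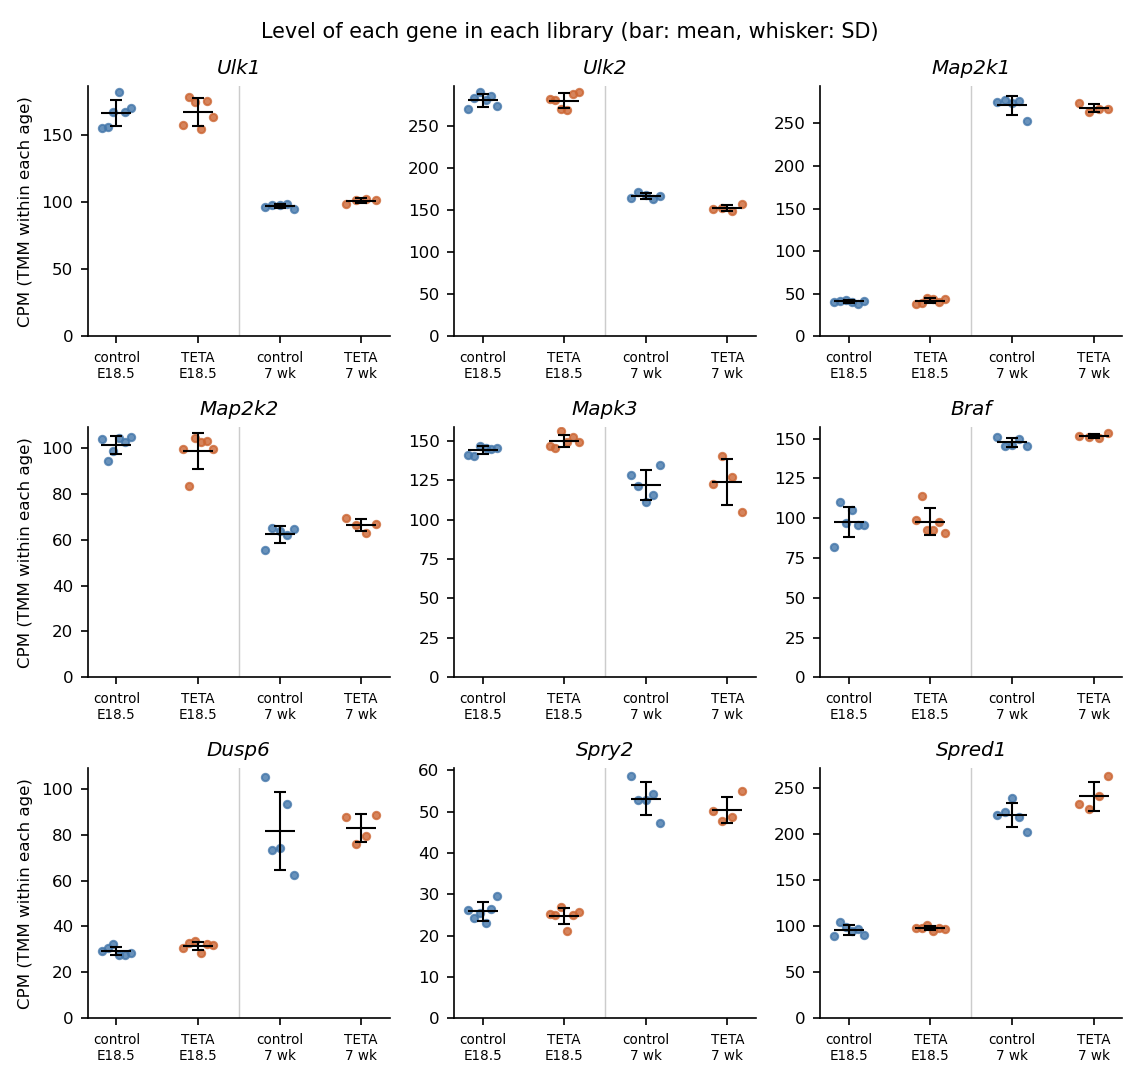
Level of each of the 9 genes in each library, in CPM scaled by TMM within each age, with the group mean and SD; blue points are water controls and orange points TETA. Ulk2 at 7 weeks is the panel in which TETA (149 to 158 CPM) lies wholly below control (164 to 172 CPM), and values of the 2 ages are on separate scales.

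At 7 weeks 1 of the 9 genes, Ulk2, passed the threshold, and it was lower in TETA. Over all genes 1418 of 14240 passed (9.96%), 5.67% higher and 4.28% lower, by edgeR. Of the called genes 808 (57%) were higher, and without TMM scaling 1003 of 1483 (67.6%) were. Leaving out TETA replicate 3 gave 927 called genes. Of the 9, 2 had an unadjusted p under 0.05, against 24% of all genes tested, and the median log2 fold change was 0.022 over the 9 and 0.00019 over all genes. One call in 9 is close to the share of all genes called.

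Ulk2 stood at 164, 172, 168, 164 and 167 CPM in the 5 control libraries and at 151, 153, 149 and 158 CPM in the 4 TETA libraries, on the scale of that age. Every TETA library was below every control library. Ulk2 fell by 0.13 on the log2 scale (SE 0.032; 95% CI -0.20 to -0.064), or -8.68% (95% CI -12.8% to -4.37%), with an adjusted p of 0.0114 by edgeR. The call held when any 1 library was left out, with adjusted p-values of 0.0098 to 0.0496 by edgeR.

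Some marker lists also differed between the groups at 7 weeks, and with each of 4 marker scores as a covariate the Ulk2 log2 fold change lay between -0.13 and -0.12, while its call was lost with 2 of the 4. With the striatum score the Ulk2 log2 fold change was -0.13, as without it, with an adjusted p of 1.00 by edgeR, and 0 genes of the table passed. That score had r = -0.966 with treatment over the 9 libraries, so striatum RNA content and treatment cannot be told apart here. With the score of oligodendrocyte markers, whose sum was 5490 to 6470 CPM in control and 4960 to 5740 CPM in TETA, Ulk2 was at -0.12 with an adjusted p of 0.0577. With the immediate early and the cortical excitatory score the call held, at -0.12 and -0.13. Astrocyte markers summed to 4760 to 5400 CPM in control and 4360 to 4710 CPM in TETA, with 2 of 7 called lower and 1 uncalled with a value above 0. Interneuron markers summed to 991 to 1030 CPM in control and 935 to 975 CPM in TETA, with 3 of 8 called lower (Gad2, Slc32a1 and Npy), 2 others with values below 0 and 3 with values above 0 that were not called (Sst, Vip and Lhx6). Neural progenitor markers summed to 62.6 to 72.2 CPM in control and 58.1 to 66.3 CPM in TETA, overlapping, with 2 of 6 tested called lower (Sox2 and Hes5). The part of the astrocyte, interneuron and progenitor markers in the Ulk2 result was not tested. Choroid plexus markers summed to 59.97 CPM in control replicate 4 and to 3.18 to 5.80 CPM in the other 8 libraries, and without that library Ulk2 was at -0.14 with an adjusted p of 0.0184 by edgeR. In bulk tissue, fewer cells of a type and less RNA per cell cannot be told apart.

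Ulk1, the paralogue of Ulk2, went the other way without passing. It was at 96.4, 97.7, 97.5, 98.5 and 94.9 CPM in control and at 98.8, 102, 103 and 102 CPM in TETA. The lowest TETA library was just above the highest control library, so the groups did not overlap. The log2 fold change was 0.061 (SE 0.033; 95% CI -0.0076 to 0.13; adjusted p = 0.272 by edgeR). Groups without overlap were found for 2 of the 9 genes, Ulk1 and Ulk2, and for 11.2% of all genes tested.

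The MEK genes did not pass at 7 weeks. Map2k1 was at 276, 278, 274, 276 and 252 CPM in control and at 274, 264, 268 and 267 CPM in TETA. Apart from 1 low control library the values lay within a narrow band, with a log2 fold change of -0.016 (SE 0.033; 95% CI -0.084 to 0.052). With the striatum score the Map2k1 value turned to 0.093, uncalled. Map2k2 was at 55.7, 65.3, 63.9, 62.1 and 64.7 CPM in control and at 69.6, 66.5, 62.9 and 67.0 CPM in TETA. In 3 TETA libraries it was above every control library, and in 1 it was not. Its log2 fold change was 0.093 (SE 0.047; 95% CI -0.0051 to 0.19; adjusted p = 0.236 by edgeR).

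Braf and Mapk3, on either side of MEK in the cascade, did not pass at 7 weeks. Braf was at 151, 146, 146, 150 and 145 CPM in control and at 152, 151, 150 and 154 CPM in TETA, with overlap, a log2 fold change of 0.040 (SE 0.031; adjusted p = 0.476 by edgeR). Mapk3 was at 128, 121, 111, 116 and 134 CPM in control and at 123, 141, 127 and 105 CPM in TETA. The TETA libraries of Mapk3 spanned a wider range than the controls and enclosed them, with a log2 fold change of 0.017 (SE 0.064; 95% CI -0.12 to 0.15).

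Of the feedback genes at 7 weeks, Spred1 had the largest difference. It was at 220, 224, 239, 218 and 202 CPM in control and at 232, 227, 241 and 263 CPM in TETA. The highest control library lay above 2 of the TETA libraries. The log2 fold change was 0.13 (SE 0.045; 95% CI 0.034 to 0.22), with an unadjusted p of 0.0103 and an adjusted p of 0.0804 by edgeR. It passed without TMM scaling (adjusted p = 0.0450), without control replicate 3 (adjusted p = 0.0349) and without TETA replicate 2 (adjusted p = 0.0487), with p-values from edgeR.

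Dusp6 and Spry2 gave no separation at 7 weeks. Dusp6 was at 105, 73.5, 74.0, 93.1 and 62.6 CPM in control and at 87.7, 76.0, 79.3 and 88.4 CPM in TETA. The control libraries spread over a wider range than the TETA libraries and enclosed them, with a log2 fold change of 0.022 (SE 0.10; 95% CI -0.19 to 0.23). Spry2 was at 58.7, 52.8, 52.8, 54.2 and 47.3 CPM in control and at 50.2, 47.7, 48.8 and 55.0 CPM in TETA, with a log2 fold change of -0.076 (SE 0.055; adjusted p = 0.437 by edgeR). Over the alternatives that kept every library, Dusp6 ran from -0.14 (immediate early score) to 0.70. Spry2 ran from -0.14 to 0.15 (striatum score), and neither gene was called in any of them. The Dusp6 interval is wide enough to hold changes from -12.2% to 17.5%.

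**Figure D3:**
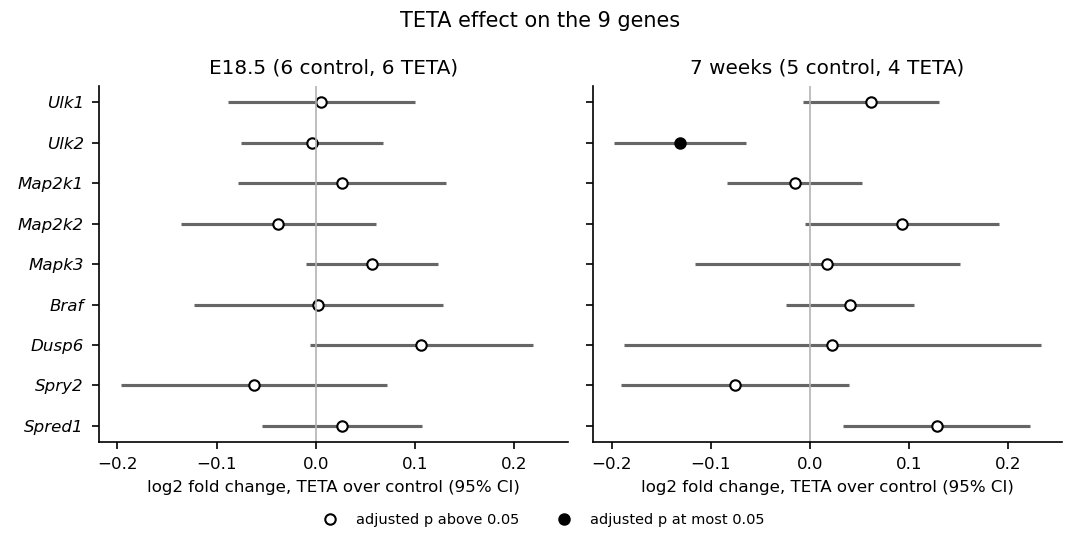
Log2 fold change of TETA over control for each of the 9 genes at E18.5 (left) and 7 weeks (right), with 95% confidence intervals; a filled point has an adjusted p of at most 0.05. Ulk2 at 7 weeks (-0.13) is the filled point, and Dusp6 at 7 weeks has the widest interval, from -0.19 to 0.23.

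The difference of the TETA effect between the ages was tested as an interaction over all 21 libraries. Here too age cannot be told apart from the dissected region, sex or the handling of each table. No marker score was used as a covariate in this test. None of the 9 genes passed, while 454 of 14660 genes did (3.1%); of these 245 (54%) had the higher value at 7 weeks, against 413 of 574 (72%) without TMM scaling and 280 of 616 (45.5%) with DESeq2. Without TETA replicate 3 at 7 weeks, 290 genes passed. Ulk2 had the smallest p of the 9, with a difference of -0.14 (SE 0.047; unadjusted p = 0.00635, adjusted p = 0.110 by edgeR). DESeq2 gave it an adjusted p of 0.0337. The other 8 genes had differences between -0.096 for Dusp6 and 0.12 for Map2k2, none with an unadjusted p under 0.05.

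Paralogue balance was then described within each library as a log2 ratio of levels per kb, with no test. Map2k2 exceeded Map2k1 in every E18.5 library, with a mean log2 ratio of Map2k1 to Map2k2 of -0.57 ± 0.10 in control and -0.50 ± 0.12 under TETA (SD over 6 libraries each). Map2k1 exceeded Map2k2 in every 7-week library, at 2.86 ± 0.12 in control and 2.75 ± 0.051 under TETA (SD, n = 5 and 4). A 1.48-fold excess of Map2k2 in control embryos thus stood against a 7.27-fold excess of Map2k1 in control at 7 weeks. The sizes of these excesses depend on the merged exon lengths used, 3391 bases for Map2k1 and 5663 for Map2k2. In CPM without length the order at each age was the same in every library.

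The ULK pair kept its order at both ages, with Ulk2 above Ulk1 in every library. The log2 ratio of Ulk1 to Ulk2 was -0.88 ± 0.087 in control and -0.86 ± 0.093 under TETA at E18.5 (SD, n = 6 and 6). At 7 weeks it was between -0.94 and -0.85 in the 5 control libraries and between -0.75 and -0.66 in the 4 TETA libraries, with no overlap. The ratio restates the opposite values of Ulk1 and Ulk2 given above and is no separate support for them.

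**Figure D4:**
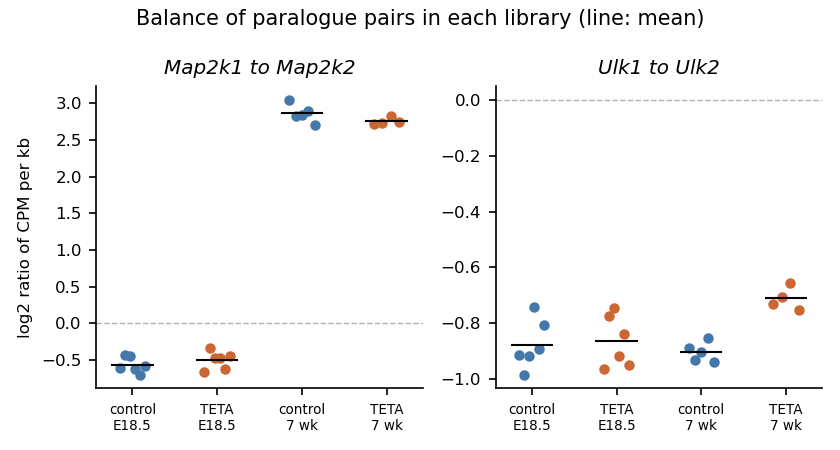
Log2 ratio of CPM per kb within each library for 2 paralogue pairs; each point is a library, the line is the group mean, and the dashed line marks equal levels. Map2k1 to Map2k2 lies below 0 in every E18.5 library and above 2.7 in every 7-week library, and the TETA libraries at 7 weeks lie above the controls for Ulk1 to Ulk2.

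Other genes of the pathways were counted in 5 lists. At E18.5, 0 genes of the lists passed: 0 of 16 of the ULK complex and early autophagosome, 0 of 11 of AMPK and mTORC1, 0 of 26 of the cascade from RAS to ERK, 0 of 7 kinases activated by ERK and 0 of 17 feedback and output genes. The smallest p-values there belonged to Ier3, Mknk2 and Atg2b. Ier3, an immediate early gene induced by growth factors, had a lowest and highest value of 1.05 and 1.70 CPM in control and 1.49 and 2.78 CPM in TETA, overlapping, with a log2 fold change of 0.60 (SE 0.17; unadjusted p = 0.0016, adjusted p = 0.596 by edgeR). Mknk2, a kinase that phosphorylates eIF4E, had a log2 fold change of 0.13 and Atg2b, a lipid transfer protein of autophagosomes, one of 0.16, both with an adjusted p of 0.801 in that test.

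At 7 weeks the autophagy side of the pathways held few calls. Of 16 genes of the ULK complex and early autophagosome 0 passed, with 2 at an unadjusted p under 0.05 and a median log2 fold change of -0.0065. Of 11 AMPK and mTORC1 genes 1 passed, the kinase gene Mtor, lower in TETA. The median log2 fold change of the 11 was 0.050, with 7 values above 0. Mtor was at 134, 133, 140, 139 and 141 CPM in control and at 126, 130, 126 and 121 CPM in TETA, with no overlap, a log2 fold change of -0.13 and an adjusted p of 0.0233 by edgeR. The Mtor call was lost under 8 of 19 alternatives. In the main fit the called shares of both lists were below or near the 9.96% of all genes. With no filter, or without TMM scaling, 2 AMPK and mTORC1 genes were called higher beside 1 lower. Without TETA replicate 1, or with the immediate early score, 1 was called higher and 0 lower. With the replicate block or the striatum score 0 were called.

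The cascade itself held 1 call among 26 genes at 7 weeks, Hras, which was lower in TETA, and the median log2 fold change of the 26 was 0.0083. Over all genes 9.96% were called, 4.28% lower, so 1 of 26 is below that share. Hras, which encodes a RAS GTPase, was at 99.8, 103, 96.4, 103 and 108 CPM in control and at 90.8, 87.7, 79.1 and 90.3 CPM in TETA, with a log2 fold change of -0.23 (adjusted p = 0.00177 by edgeR). The highest TETA library lay below the lowest control library.

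Of 7 kinases activated by ERK, 1 rose and 1 fell at 7 weeks, beside 5.67% of all genes called higher and 4.28% called lower. Rps6ka2, an RSK family kinase, had a log2 fold change of 0.15 (adjusted p = 0.0124 by edgeR), with 82.3 to 87.6 CPM in control and 91.7 to 99.9 CPM in TETA. Rps6ka4, an MSK family kinase, had one of -0.15 (adjusted p = 0.0328 in that test), with 45.7 to 51.5 CPM in control and 43.3 to 45.3 CPM in TETA. Neither overlapped between the groups, and the Rps6ka4 call was lost under 12 of 19 alternatives. The Rps6ka2 call was lost without TETA replicate 3 (adjusted p = 0.0678 by edgeR), and with the striatum score its value turned to -0.12, uncalled.

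Feedback and output genes of ERK held 5 calls among the 18 tested of 20 listed at 7 weeks, all higher in TETA, beside 5.67% of all genes called higher. The list had a median log2 fold change of 0.16 and 16 of 18 positive values. Dusp5, a nuclear phosphatase of ERK, was at 10.5, 8.01, 7.52, 8.84 and 7.13 CPM in control and at 16.1, 16.3, 12.6 and 12.3 CPM in TETA. All TETA libraries were above all controls, a log2 fold change of 0.77 (adjusted p = 1.42e-04 by edgeR). Spred3, a relative of Spred1, had a log2 fold change of 0.24 (adjusted p = 0.00765 in that test) with 55.2 to 65.8 CPM in control and 63.3 to 75.3 CPM in TETA.

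The other 3 called output genes were Etv5, Ier3 and Ccnd1. Etv5, an ETS transcription factor, had a log2 fold change of 0.14 (adjusted p = 0.0123 by edgeR), with 148 to 160.2 CPM in control and 161 to 176 CPM in TETA. Ier3 had one of 0.29 (adjusted p = 0.0427) and Ccnd1, the cyclin D1 gene, one of 0.23 (adjusted p = 0.0474), both in that test. The Ier3 call was lost under 15 of 19 alternatives, and the Ccnd1 call under 9 and, with its sign turned to -0.072, under the striatum score. Etv5 and Ier3 did not overlap between groups, and Spred3 and Ccnd1 did. The count of 5 fell to 3 without TETA replicate 1, 3 or 4, with the replicate block and with the cortical excitatory score. It was 1 with the oligodendrocyte score, under which the list's median log2 fold change was 0.15, and 0 with the striatum score, under which the median was 0.077. Immediate early genes, markers of recent neuronal activity, summed to 519 to 908 CPM in control and 799 to 977 CPM in TETA, and with their score as a covariate 4 of the 18 passed, with a median of 0.12. Endothelial markers summed to 146 to 167 CPM in control and 151 to 175 CPM in TETA, overlapping, with a median log2 fold change of 0.15 over 6 genes. Of the 6, 1 was called higher (Flt1), 3 had values above 0 and 2 below 0 (Kdr at -0.23 and Cldn5 at -0.021), none of these 5 called. Their part in the result was not tested.

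Dusp5 and Spred3 were also called in the interaction between ages. They were 2 of 18 feedback and output genes tested, with 0 called in the other lists of 16, 11, 26 and 7 genes. Over all genes 3.1% were called in that test. The TETA effect on Dusp5 was 0.80 higher on the log2 scale at 7 weeks than at E18.5 (adjusted p = 0.0079 by edgeR), and that on Spred3 was 0.30 higher (adjusted p = 0.0172). At E18.5 their own log2 fold changes were -0.038 and -0.071. As above, age cannot be told apart here from region, sex or handling. The 3 feedback genes described above, Dusp6, Spry2 and Spred1, were not called at 7 weeks or in the interaction.

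**Figure D5:**
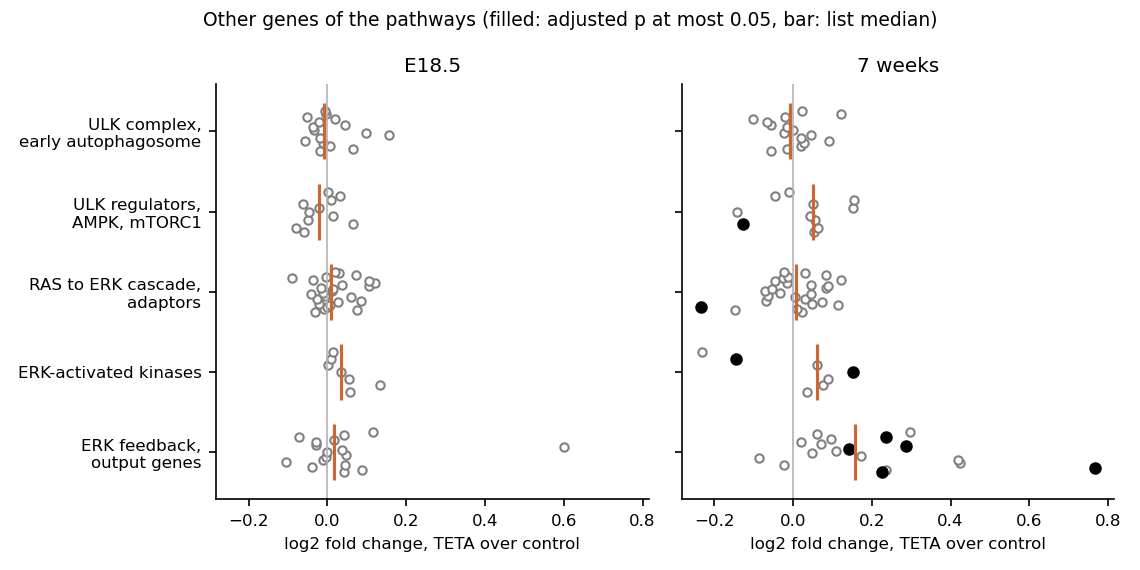
Log2 fold change of TETA over control for the other pathway genes, by list, at E18.5 (left) and 7 weeks (right); each circle is a gene, filled where the adjusted p is at most 0.05, and the orange bar is the list median. At 7 weeks 5 of 18 feedback and output genes are filled, all on the higher side, with Dusp5 farthest at 0.77; no gene is filled at E18.5.

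The 9 genes varied among themselves with little common pattern once group means were removed. Over the 36 pairs, Pearson's r of log2 CPM across 21 libraries ran from -0.62 for Map2k2 with Braf to 0.58 for Dusp6 with Spry2, with a median of 0.035. At 7 weeks alone, over 9 libraries, Dusp6 had r = 0.87 with Spry2 and 0.94 with Braf, while Mapk3 had r = -0.87 with Spred1. Points of one library share its depth, scaling and dissection, so these are descriptions. The deviations of Dusp6 at 7 weeks had r = 0.85 with those of the immediate early gene sum.

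Braf and Map2k2 stood at opposite ends in the libraries numbered 1-2 at E18.5. In control Braf was highest there at 110 CPM and Map2k2 lowest at 94.3 CPM, and in TETA Braf was highest at 114 CPM and Map2k2 lowest at 83.4 CPM. Over the 12 libraries of that age the deviations of Braf had r = 0.70 and those of Map2k2 r = -0.64 with the immediate early gene sum, and r = 0.75 and -0.62 with the cortical excitatory neuron sum. Braf also had r = 0.60 with the striatum sum, for which Map2k2 had r = -0.031.

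Among 13434 genes tested at both ages, those most like each of the 9 were found by the same r over 21 libraries. Braf was most like Nfat5 (r = 0.96), Zfhx2 (0.93) and Celf2 (0.92), and Map2k2 most like Romo1 (0.91), Tmem147 (0.89) and Psmb4 (0.88). For Dusp6 these were Klf10 (0.87), Cenpk (0.82) and the activity-induced gene Nr4a1 (0.80). For Klf10 and Nr4a1 the r with Dusp6 was 0.58 and 0.15 at E18.5 alone and 0.93 and 0.91 at 7 weeks. The first for Ulk1 was Zfp532 (0.87), for Ulk2 Rassf10 (0.77), for Map2k1 Emc9 (0.87), for Mapk3 Itpripl1 (0.89), for Spry2 Pcdhb3 (0.75) and for Spred1 Rock2 (0.88).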

How the data were processed

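RNA from mouse brain was sequenced as stranded poly(A) libraries (TruSeq), per the labels' protocols. The authors deposited whole-number counts per gene symbol in 2 tables, for E18.5 and 7 weeks, whose columns are the libraries, per the file headers. The submitters' processing notes name STAR 2.7.1a, featureCounts 2.0.1 and mm10; annotation, strand setting and handling of shared reads are not given in the sources used here, so reads of near-identical genes may have been split or dropped.

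At E18.5, 1940 rows at 0 in control replicate 1-1 held only multiples of 11 and were divided by 11. None of the 9 genes was among them, and 0 of them were then tested. Each age was fitted alone with edgeR 4.0.16 in R 4.3.3: filterByExpr with a minimum count of 10, TMM scaling, the quasi-likelihood test and BH adjustment over all genes tested, at a threshold of 0.05. A fit of all 21 libraries gave the difference between ages, the control comparison of ages and the joint scale of levels. The SE is the size of the log2 fold change divided by the square root of F. Levels are TMM-scaled CPM, and log2 CPM used a prior count of 2. Coordinates and exon lengths came from GENCODE M21 and promoters from RefSeq. The lowest chi-square per gene of any replicate pair was 2.40, so no 2 replicates agreed within counting noise.

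The 9 genes, the pathway and marker lists and the tests were chosen with earlier results of these data known. Named pathway genes are those past the threshold at an age, up to 10 by p, or the 3 with the smallest p where none passed; Drd2 of the striatum list could be named as well. 1 further gene of the cascade is not reported here. The alternatives were no filter, a mean count of at least 50, DESeq2 1.42.0, library totals without TMM, limma 3.58.1 voom with quality weights, a replicate block, counts without the division, summing by the first part of the E18.5 numbers, Y-linked and striatum covariates, and leaving out each library. Covariates from immediate early, cortical excitatory and oligodendrocyte lists were added after seeing the data. The fits were also run on simulated counts, with the same dispersion for all genes and independent libraries. That run cannot cover effects of shared origin, sex or dissection. Python 3.11.15 made the descriptions and figures.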

Additional observations from a re-analysis of the deposited data

Results flagged for a closer look

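In 4 groups of 4 to 6 libraries, 1 library stood apart from the rest by Dixon's ratio, its gap to the nearest library divided by the range of the group. Of 60 groups examined, 3 would be found by chance at 1 in 20. Map2k2 in TETA at E18.5 was at 83.4 CPM in replicate 1-2, below the next library at 99.5 CPM (ratio 0.771, critical value 0.625). Braf in the same library was at 114 CPM, above the next at 98.8 CPM (ratio 0.659). Spry2 in TETA replicate 2-2 at E18.5 was at 21.2 CPM, below the next at 24.98 CPM (ratio 0.661). Map2k1 in control replicate 5 at 7 weeks was at 252 CPM, below the next at 274 CPM (ratio 0.826, critical value 0.71).

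The effect of TETA differed between the ages for 2 pathway genes by the interaction test of edgeR, higher at 7 weeks than at E18.5 by 0.80 on the log2 scale for Dusp5 and by 0.30 for Spred3. In that test 3.1% of all genes were called. Age cannot be told apart there from the dissected region, sex or the handling of each table.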

How the results depend on the processing

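At E18.5 the count of called genes, 0 with edgeR, was 10 with DESeq2, 8 with voom quality weights, 2 after summing by the first replicate number, 5 with the cortical excitatory score and 0 to 7 when 1 library was left out, and the count among the 9 genes was 0 in each. At 7 weeks the count of 1418 genes became 0 with the striatum score (673 at an unadjusted p under 0.05), 846 with the oligodendrocyte score and 927 to 1392 when 1 library was left out. Of the 9 genes, 1 was called at 7 weeks, 2 without TMM scaling, 0 with the striatum score, 0 with the oligodendrocyte score and 1 to 2 when 1 library was left out. In the interaction DESeq2 called 1 of the 9, and leaving out 1 library gave 290 to 622 genes.

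Whether the replicate numbers shared by control and TETA pair the libraries could not be settled. The correlation of same-numbered deviations was -0.30 to 0.31 in the embryonic libraries, with mixed signs, and -0.084 to -0.020 in the 7-week libraries. With the replicate block 0 genes were called at E18.5 (719 at an unadjusted p under 0.05), 1072 at 7 weeks and 472 in the interaction, and Ulk2 at 7 weeks had an adjusted p of 0.0461.

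Some signs turned. At E18.5 Ulk1 went to -0.0028 without TMM, -0.020 with voom weights and -0.027, -0.0074 and -0.011 with the immediate early, cortical and oligodendrocyte scores. Braf went to -0.0054 without TMM, -0.0086 with voom weights, -0.11 with the immediate early and -0.011 with the cortical score. Ulk2 went to 0.0010 after summing and 0.0021 with the oligodendrocyte score, and Map2k2 to 0.023 with the immediate early score. At 7 weeks Map2k1 went to 0.00038 without TMM and 0.093 with the striatum score, Dusp6 to -0.052 with the block, -0.14 with the immediate early and -0.058 with the oligodendrocyte score, Mapk3 to -0.026 with the striatum and -0.0042 with the cortical score, and Spry2 to 0.15 with the striatum score. With the striatum score the called genes Rps6ka2 and Ccnd1 also turned, to -0.12 and -0.072. The Spry2 difference between ages went to 0.011 without TMM.

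Leaving out 1 library gave E18.5 values of -0.015 to 0.033 for Ulk1, -0.014 to 0.0079 for Ulk2, -0.054 to 0.0061 for Map2k2 and -0.048 to 0.040 for Braf. At 7 weeks it gave -0.047 to 0.089 for Mapk3 and -0.061 to 0.13 for Dusp6. For the difference between ages it gave -0.0096 to 0.076 for Braf, -0.18 to 0.014 for Dusp6, -0.12 to 0.018 for Mapk3 and -0.072 to 0.015 for Spry2. The cause of these turns was not tested. Of the 9 called pathway genes at 7 weeks, and apart from the turned signs, Dusp5 and Hras lost their calls under 1 of 19 alternatives (the striatum score), Rps6ka2 under 1 (without TETA replicate 3), Spred3 and Etv5 under 2, Mtor under 8, Ccnd1 under 9, Rps6ka4 under 12 and Ier3 under 15. Spry2 and Dusp6 at E18.5 had the fewest counts of the 9 genes.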
